A study of Homo sapiens with 12 samples.

Results

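The S100 proteins are small calcium-binding proteins of the EF-hand type, and 9 of their genes were followed here: S100A4, S100A6, S100A8, S100A9, S100A10, S100A11, S100A12, S100A13 and S100P. They were taken by gene symbol from count tables that each list 60648 genes, and the other 12 S100 genes of the same tables served as their relatives. Messenger RNA had been sequenced in OCIAML5 and MOLM13, established lines from human acute myeloid leukemias, after lentiviral hairpins lowered PSPC1, a paraspeckle protein that binds RNA, or PU.1, the myeloid transcription factor encoded by SPI1.

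The 12 libraries formed 6 groups of 2. A first experiment held PSPC1-knockdown and control libraries of MOLM13, and PSPC1-knockdown and control libraries of OCIAML5. A second held PU.1-knockdown and control libraries of OCIAML5 only. All cells, controls included, had been transduced and then either selected with puromycin or sorted by GFP, and the labels do not say which route a library took, whether its group shared a hairpin, or whether replicates were separate cultures. P-values therefore reflect the spread between libraries of a group, whose source may be technical. MOLM13 was grown in RPMI with 10% serum, and OCIAML5 in α-MEM with 20% serum and 10 ng/mL of GM-CSF, so line and medium cannot be told apart.

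S100 proteins mostly act as dimers that open a binding face when calcium rises and then grip a target: S100A4 holds non-muscle myosin, S100A6 holds the calcyclin-binding protein, S100A10 and S100A11 hold annexins, and S100P holds ezrin and IQGAP1. S100A8 and S100A9 together form calprotectin, which monocytes and neutrophils store and release in quantity, and released S100 proteins are ligands of AGER (RAGE) and TLR4. Most of the genes lie in a cluster on the long arm of chromosome 1. S100P lies apart, on chromosome 4.

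On GRCh38 in the GENCODE 29 annotation, S100A10 (chr1:151982915-151994390) and S100A11 (chr1:152032506-152047907) are neighbours on the minus strand. Farther along lie the calgranulin genes S100A9 (chr1:153357854-153361027, plus strand), S100A12 (chr1:153373706-153375649) and S100A8 (chr1:153390032-153391188), and then S100A6 (chr1:153534599-153536244), S100A4 (chr1:153543613-153550136) and S100A13 (chr1:153618787-153631360), all on the minus strand but S100A9. S100P spans chr4:6693069-6697170 on the plus strand. S100A13 overlaps S100A1, which runs the other way, over 235 exon bases, and no source used here states whether the counting used strand, so reads of that stretch cannot be assigned with certainty.

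Promoter windows of RefSeq (GRCh38.p14, 250 bases before to 50 after an annotated start) were available for all 9 genes. A selection of windows is printed below, which leaves out some genes that were called, S100A6 and S100A10 among them. Capitals mark GAGGAAG, a core of PU.1 binding sites, and TATAAA, the TATA box, on either strand. The printed windows are S100P at chr4:6693628-6693927 (plus), S100A9 at chr1:153357604-153357903 (plus), S100A11 at chr1:152036955-152037254 (minus), S100A13 at chr1:153627456-153627755 (minus) and S100A4 at chr1:153545757-153546056 (minus). The S100A13 window is the only 1 of its 3 annotated starts that held TATAAA.
S100P: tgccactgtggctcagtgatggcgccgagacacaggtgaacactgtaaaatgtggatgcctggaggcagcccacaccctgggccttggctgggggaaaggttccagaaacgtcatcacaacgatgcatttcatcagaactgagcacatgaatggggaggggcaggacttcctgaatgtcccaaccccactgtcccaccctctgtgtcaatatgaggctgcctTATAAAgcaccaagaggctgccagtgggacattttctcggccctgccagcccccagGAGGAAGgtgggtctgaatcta
S100A9: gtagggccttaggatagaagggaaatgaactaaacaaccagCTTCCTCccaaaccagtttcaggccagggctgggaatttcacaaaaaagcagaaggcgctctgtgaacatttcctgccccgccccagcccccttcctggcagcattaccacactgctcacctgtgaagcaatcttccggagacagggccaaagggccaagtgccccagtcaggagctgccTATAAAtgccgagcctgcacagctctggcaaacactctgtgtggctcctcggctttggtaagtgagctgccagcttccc
S100A11: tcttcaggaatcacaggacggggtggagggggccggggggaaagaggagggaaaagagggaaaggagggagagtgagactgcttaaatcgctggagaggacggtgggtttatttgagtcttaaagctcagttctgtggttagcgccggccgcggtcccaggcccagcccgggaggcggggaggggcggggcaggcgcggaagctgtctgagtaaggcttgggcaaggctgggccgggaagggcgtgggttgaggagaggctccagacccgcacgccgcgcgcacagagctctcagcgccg
S100A13: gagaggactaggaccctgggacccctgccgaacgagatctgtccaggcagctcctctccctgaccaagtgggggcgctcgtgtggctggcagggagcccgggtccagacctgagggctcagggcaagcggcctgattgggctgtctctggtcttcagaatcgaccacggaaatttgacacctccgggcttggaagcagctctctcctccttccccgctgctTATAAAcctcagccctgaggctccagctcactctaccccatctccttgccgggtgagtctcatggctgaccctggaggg
S100A4: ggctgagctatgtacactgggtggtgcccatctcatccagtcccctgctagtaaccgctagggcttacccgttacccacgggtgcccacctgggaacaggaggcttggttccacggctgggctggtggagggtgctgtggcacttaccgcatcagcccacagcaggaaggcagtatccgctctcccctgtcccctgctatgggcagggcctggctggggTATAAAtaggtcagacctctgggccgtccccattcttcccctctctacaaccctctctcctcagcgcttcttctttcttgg

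GAGGAAG stood in the windows of S100P, where it lies just after the start, of S100A9, and of S100A8, and in those of none of the other 6 genes. TATAAA stood in front of the starts of S100P, S100A9, S100A4, S100A13, S100A8 and S100A12, and S100A6, S100A10 and S100A11 held neither. Of the 35116 promoter windows in the table, 13.6% held GAGGAAG and 11.5% held TATAAA. The C/EBP core TTGCNNAA, searched on both strands, was found at S100A11 and S100A12 and in 10.5% of all windows, and the short core GGAA, which GAGGAAG contains, in 95.5%. These matches describe letters in the windows, not binding.

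Levels are given in CPM, each count divided by its library's total in M counts, with totals scaled within each experiment, for the libraries of a group in order. Log2 changes are knockdown over control with their standard error (SE), and adjusted p-values come from edgeR's quasi-likelihood test with Benjamini-Hochberg adjustment over all genes tested; a gene is called at an adjusted p under 0.05. The depth was 15.4 to 22.8 M counts per library for PSPC1 and 26.3 to 39.7 M for PU.1. The target genes followed their labels: PSPC1 stood at 27.1 and 27.7 CPM in PSPC1-knockdown MOLM13 against 130 and 135 CPM in its controls, and at 18.9 and 19.2 CPM in PSPC1-knockdown OCIAML5 against 99.1 and 98.8 CPM. SPI1 had 47.5 and 46.2 CPM in PU.1-knockdown libraries against 227 and 204 CPM in their controls. PSPC1 itself was lower in the PU.1-knockdown libraries too, at 59.8 and 58.2 CPM against 106 and 113 CPM, a log2 change of -0.89. In bulk RNA, fewer cells of a type and less RNA per cell cannot be told apart.

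Per kilobase of exon, S100A11 and S100A4 were the most abundant members in all 6 groups. S100A11 averaged 132 ± 4.6 CPM per kb in PSPC1-knockdown MOLM13 and 191 ± 4.0 in its controls, and 132 ± 1.2 in PU.1-knockdown OCIAML5 and 54.6 ± 2.2 in its own controls (SD, n = 2 each). S100A4 stood above S100A11 only in the OCIAML5 controls of the PSPC1 experiment, at 62.5 ± 4.9 against 50.6 ± 3.0 CPM per kb, with ranges apart. With the longest transcript as the length, S100A4 also came first in the PU.1 controls, at 65.4 against 62.5.

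S100A10 and S100A6 formed the next tier, between 6.52 and 44.9 CPM per kb by group mean. Their order changed between groups, and in PU.1-knockdown OCIAML5, at 14.8 ± 1.8 for S100A10 and 13.8 ± 1.3 for S100A6, their libraries overlapped. S100A13 ran from 0.435 ± 0.033 in MOLM13 controls to 3.89 ± 0.065 in PSPC1-knockdown OCIAML5. S100P stood above S100A13 in MOLM13 controls, at 0.715 ± 0.35, and after PU.1 knockdown, while S100A8 and S100A13 overlapped in the OCIAML5 controls of the PSPC1 experiment, at means of 1.01 and 1 CPM per kb. S100P reached 9.81 ± 0.98 in PU.1-knockdown OCIAML5 and stayed at or under 0.715 CPM per kb by mean in the other 5 groups. The calgranulins were scarce: S100A8 and S100A9 reached group means of at most 1.01 and 1.1 CPM per kb, and S100A12 gave 1 read in all 12 libraries.

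**Figure D1:**
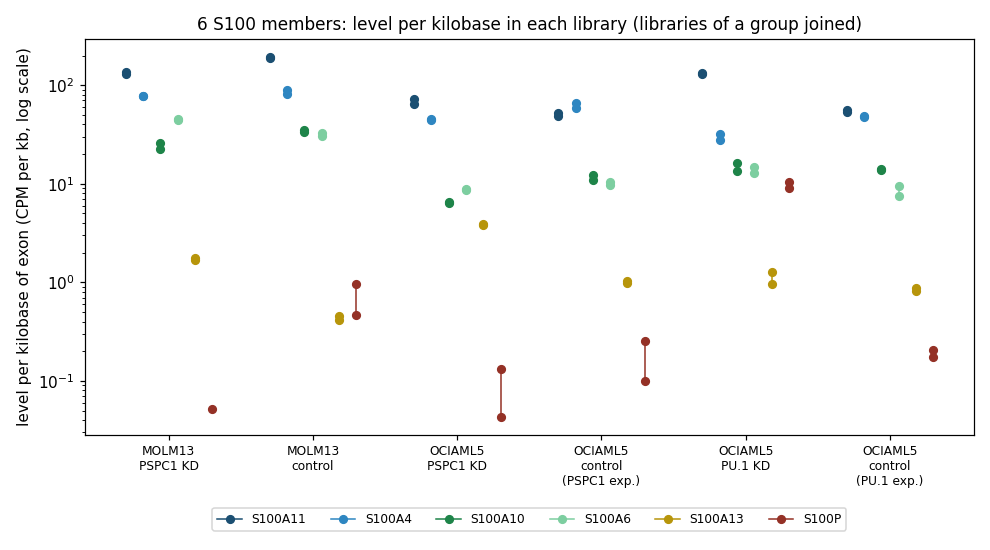
Level per kilobase of exon (CPM per kb, log axis) of 6 S100 genes in each library of the 6 groups, with the libraries of a group joined by a line; the MOLM13 knockdown library without an S100P read is not drawn. S100A11 and S100A4 lie at the top in every group, and S100P stands near 10 CPM per kb only in the PU.1-knockdown libraries.

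**Figure D2:**
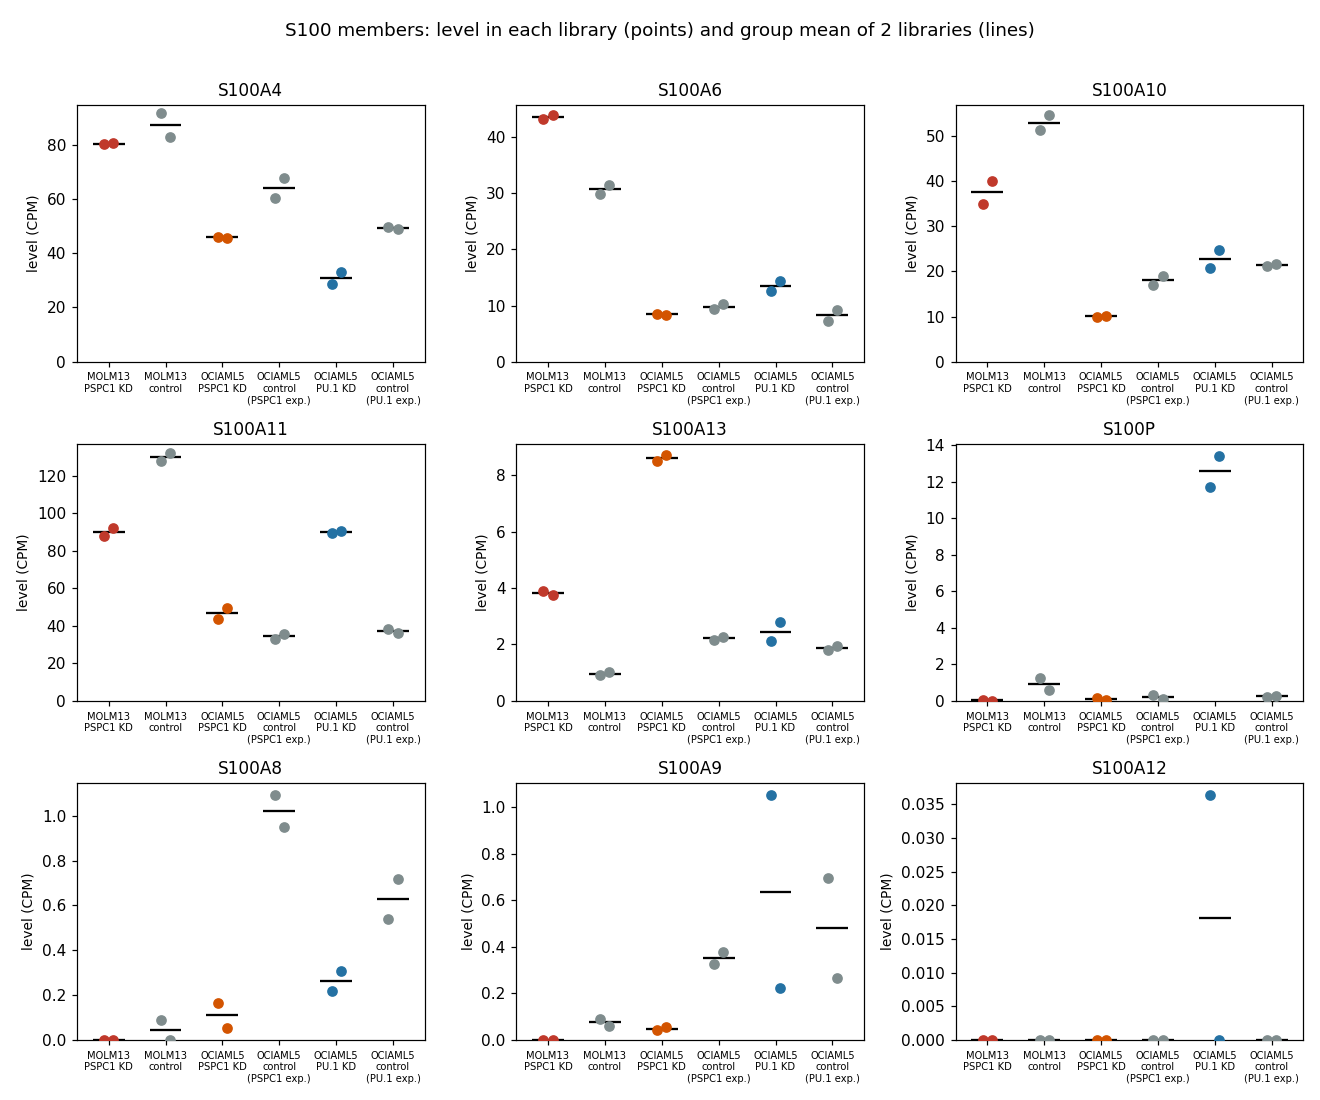
Level (CPM, linear axes that differ between panels) of each of the 9 S100 genes in every library, with a line at the mean of the 2 libraries of a group. S100A13 is higher in both PSPC1-knockdown groups than in their controls, S100P is high after PU.1 knockdown, and the S100A12 panel rests on 1 read.

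PU.1 knockdown in OCIAML5 was followed by the largest change of any member. S100P, a placental S100 protein that binds ezrin and signals through AGER when released, stood at 11.7 and 13.4 CPM in the knockdown libraries against 0.222 and 0.265 CPM in the controls (322 and 482 reads against 7 and 10). The groups did not overlap, and the log2 change was 5.66 ± 0.25 (50.6-fold, adjusted p = 1.4e-34). Leaving out each library in turn gave 5.53 to 5.79. S100P passed the filter on low counts only through its knockdown libraries, where it was high. Its adjusted p and the gap between the groups therefore support nothing beyond these values.

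S100A11, a partner of annexin A1 also called calgizzarin, stood at 89.3 and 90.4 CPM in PU.1-knockdown libraries against 38.2 and 36 CPM in controls, a log2 change of 1.28 ± 0.061 (2.42-fold, adjusted p = 1e-32). S100A6, calcyclin, stood at 12.5 and 14.3 CPM against 7.28 and 9.22 CPM, a log2 change of 0.69 ± 0.13 (adjusted p = 1.6e-06). S100A4, known for its part in cell motility, moved the other way, at 28.7 and 32.9 CPM against 49.8 and 49 CPM, a log2 change of -0.67 ± 0.071 (adjusted p = 6.5e-14). In each of these genes both knockdown libraries lay beyond both controls. The share of all member counts that came from S100A11 was thus 53.7% and 50.5% in knockdown libraries against 31.9% and 30.3% in controls, and that of S100A4 17.3% and 18.4% against 41.6% and 41.1%.

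The other members did not pass the test after PU.1 knockdown. S100A10 stood at 20.8 and 24.8 CPM against 21.1 and 21.6 CPM, with overlapping groups (log2 0.10 ± 0.091, adjusted p = 0.36). With library size alone as the scaling, it was called higher, at 0.25 (adjusted p = 0.01), but that scaling raised the median change of all genes by 0.151. S100A13 stood at 2.14 and 2.79 CPM against 1.81 and 1.93 CPM (log2 0.41 ± 0.27, adjusted p = 0.19). S100A8 gave 6 and 11 reads against 17 and 27, or 0.218 and 0.307 CPM against 0.538 and 0.716 CPM; the groups did not overlap, but the log2 change of -1.23 ± 0.59 had an adjusted p of 0.062. S100A9 gave 29 and 8 reads against 22 and 10, with knockdown libraries on either side of the controls (log2 0.38 ± 0.57, adjusted p = 0.59). S100A12 gave its only read in a PU.1-knockdown library and none in the controls, which allows up to 0.0433 CPM there (3 counts over both control libraries, counting error only).

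Of the 8 members tested after PU.1 knockdown, 3, S100P included, were higher, 1 was lower and 4 were not called. Of all genes tested, 60.5% were called, 29.5% higher and 30.9% lower. The members' median log2 change, S100P included, was 0.40, against 0.02 over all genes. Monocyte markers moved in the same libraries: all 7 tested of the 12 listed fell, and their sum was 72 to 72.1 CPM in knockdown libraries against 582 to 594 CPM in controls. Azurophil granule genes summed to 107 to 108 CPM against 45 to 45.5 CPM, with 5 of 7 higher and 1 lower. Of the 5 blast markers, FLT3, CD33, CD34 and KIT fell and MYB rose, with a median log2 change of -1.70. Their sum was 720 to 755 CPM against 697 to 709 CPM with MYB and 93 to 100 CPM against 197 to 201 CPM without it. The part of these cell-state genes in the S100 changes was not tested.

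**Figure D3:**
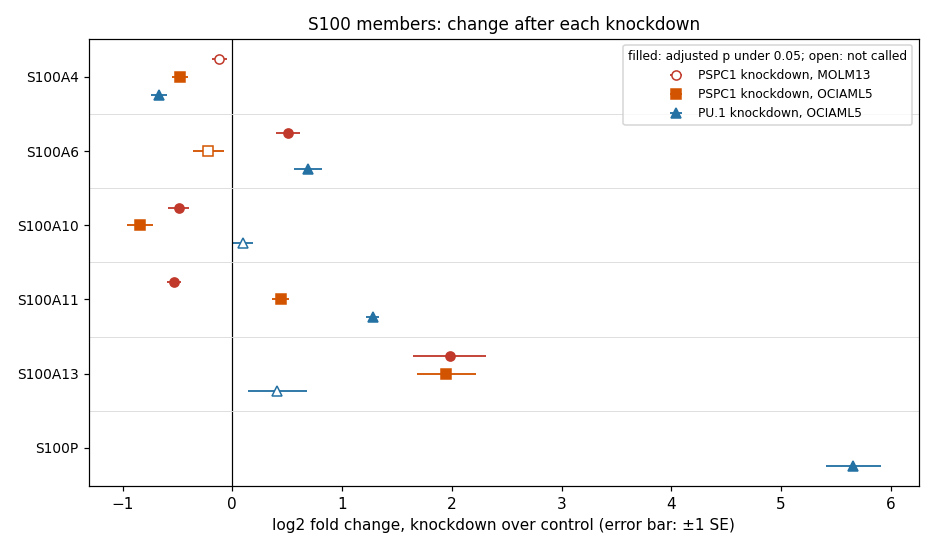
Log2 change (knockdown over control, error bars of 1 SE) of 6 S100 genes after PSPC1 knockdown in MOLM13 (circles), PSPC1 knockdown in OCIAML5 (squares) and PU.1 knockdown in OCIAML5 (triangles), with filled symbols for an adjusted p under 0.05; S100P was tested only after PU.1 knockdown, and the sparse S100A8, S100A9 and S100A12 are not drawn. S100A13 lies near 2 after PSPC1 knockdown in both lines, S100A11 lies on opposite sides of 0 in the 2 lines, and S100P lies at 5.66.

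PSPC1 knockdown was followed by a rise of S100A13 in both lines. S100A13, which helps export FGF1 and IL1A from the cell without a signal peptide, stood at 3.89 and 3.75 CPM in PSPC1-knockdown MOLM13 against 0.913 and 1.02 CPM in controls, a log2 change of 1.98 ± 0.33 (3.96-fold, adjusted p = 3.3e-07). In OCIAML5 the knockdown libraries had 8.52 and 8.72 CPM and the controls 2.17 and 2.28 CPM, a log2 change of 1.95 ± 0.27 (3.87-fold, adjusted p = 2.6e-09). Neither pair of groups overlapped, and the difference between the lines was 0.03 ± 0.40 (adjusted p = 0.99). FGF1, a cargo of S100A13, had no reads in any library, and SYT1, its partner in export, had 0.0363 CPM in 1 PU.1-knockdown library and none elsewhere.

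S100A1, which shares exon bases with S100A13 on the other strand and is best known from heart muscle, stood at 5.01 and 4.17 CPM in PSPC1-knockdown OCIAML5 against 1.03 and 0.822 CPM in controls (log2 2.30 ± 0.42, adjusted p = 1.6e-06). In MOLM13 it stood at 0.923 and 0.645 CPM against 0.411 and 0.358 CPM, which did not pass the test (log2 0.99 ± 0.58, adjusted p = 0.14). S100A13 also shares 536 exon bases with AL162258.1, a transcript on its own strand. How far these overlaps feed the S100A13 counts was not tested. CHTOP, 2622 bases away, was the next protein-coding gene outside the S100 family beside S100A13. It fell in all 3 knockdowns, by 0.29, 0.25 and 0.38 on the log2 scale.

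S100A10 fell in both lines. This protein, also called p11, pairs with annexin A2 at the plasma membrane and does not itself bind calcium. It stood at 35 and 39.9 CPM in PSPC1-knockdown MOLM13 against 51.2 and 54.6 CPM in controls, a log2 change of -0.49 ± 0.097 (adjusted p = 8.5e-06). Knockdown OCIAML5 had 9.94 and 10.2 CPM against 16.9 and 19 CPM in controls, a log2 change of -0.84 ± 0.12 (adjusted p = 1.1e-08). The groups did not overlap in either line, and the difference between the lines, 0.34 ± 0.16, did not pass the test (adjusted p = 0.094).

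S100A11 went in opposite directions in the lines. It stood at 87.8 and 92.2 CPM in PSPC1-knockdown MOLM13 against 128 and 132 CPM in controls, a log2 change of -0.53 ± 0.065 (adjusted p = 3.7e-11). In knockdown OCIAML5 it had 43.6 and 49.6 CPM, against 33 and 35.8 CPM in controls, a log2 change of 0.44 ± 0.077 (adjusted p = 9e-07). The effect in MOLM13 minus that in OCIAML5 was -0.96 ± 0.10 (adjusted p = 4.7e-13).

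S100A6 and S100A4 also differed between the lines. S100A6 stood at 43.3 and 43.9 CPM in PSPC1-knockdown MOLM13 against 29.9 and 31.5 CPM in controls (log2 0.51 ± 0.11, adjusted p = 3.3e-05). Knockdown OCIAML5 had 8.52 and 8.34 CPM and its controls 9.4 and 10.2 CPM, groups that did not overlap but did not pass the test (log2 -0.22 ± 0.14, adjusted p = 0.2); the effects differed by 0.72 ± 0.18 (adjusted p = 0.00083). S100A4 stood at 46 and 45.7 CPM in PSPC1-knockdown OCIAML5 against 60.5 and 67.6 CPM in controls (log2 -0.48 ± 0.073, adjusted p = 2.2e-08).

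In MOLM13 S100A4 stood at 80.3 and 80.5 CPM in PSPC1-knockdown libraries against 91.5 and 82.9 CPM in controls (log2 -0.12 ± 0.068, adjusted p = 0.13). Without the second MOLM13 control it was called lower there, at -0.20 (adjusted p = 0.036). The effects of PSPC1 knockdown on S100A4 in the lines differed by 0.36 ± 0.10 (adjusted p = 0.0029).

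The calgranulins and S100P were near the limit of detection in the PSPC1 experiment. S100A8 gave 4 and 1 reads in PSPC1-knockdown OCIAML5 against 20 and 15 in controls, or 0.167 and 0.0556 CPM against 1.09 and 0.948 CPM, and was called lower (log2 -3.05 ± 0.90, adjusted p = 0.0026). It passed the filter through these controls, and without the second knockdown library the call was lost (log2 -2.57, adjusted p = 0.094). S100A9 was too sparse to be tested, with 1 and 1 reads in knockdown OCIAML5 against 6 and 6 in controls, so that the controls stood 7.35 times above the knockdown libraries (95% exact interval 1.64 to 67.7, counting error only). In MOLM13, S100A8 had no reads after knockdown and 2 and 0 in controls, and S100A9 none after knockdown and 2 and 1 in controls.

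S100P had 1 and 0 reads in PSPC1-knockdown MOLM13 against 27 and 10 in controls, under the filter on low counts. The controls stood 30.9 times above the knockdown libraries (control over knockdown; 95% exact interval 5.21 to 1250, counting error only). With no filter S100P was called lower, at a log2 change of -4.63 (adjusted p = 0.0012), but not without the first control (-3.99, adjusted p = 0.07). In OCIAML5 it gave 4 and 1 reads against 6 and 2, a ratio of 0.51 with an interval of 0.131 to 1.77, so no difference was detectable at this depth.

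Counting all members, 6 were tested in the PSPC1 experiment, and S100A9, S100A12 and S100P were too sparse. In MOLM13, 2 were higher and 2 lower after PSPC1 knockdown, while 57.2% of all genes tested were called, 27.6% higher and 29.6% lower; S100A4 and S100A8 were not called. In OCIAML5, 2 were higher and 3 lower, while 56.1% of all genes were called, 27.6% higher and 28.6% lower. The median log2 change of the members tested, S100A8 included, was -0.30 in MOLM13 and -0.35 in OCIAML5. Over all genes it was 0.006 and 0.017. S100A8, 1 of the 3 called lower in OCIAML5, passed the filter on low counts only through the OCIAML5 controls. Its log2 change of -3.09 in MOLM13 rests on 2 and 0 reads in controls and none after knockdown. No shift of the members is therefore read from these medians. For the difference between the lines, 2 members were called higher and 1 lower, beside 30.7% of all genes, 12.5% higher and 18.2% lower. The summed level of the 9 members was 250 and 260 CPM in PSPC1-knockdown MOLM13 against 303 and 302 CPM in controls, and 117 and 123 CPM in knockdown OCIAML5 against 124 and 136 CPM.

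Cell-state markers and the mitochondrial share moved with PSPC1 knockdown as well. The counts of called markers in this paragraph stand beside 57.2% of all genes called in MOLM13 and 56.1% in OCIAML5. Of 12 monocyte markers 7 were tested. In MOLM13, 3 rose and none fell, and the list summed to 728 to 747 CPM in knockdown libraries against 516 to 524 CPM in controls. In OCIAML5, 1 rose and 4 fell, and the sum was 782 to 793 CPM in knockdown libraries against 1190 to 1200 CPM. Without MPEG1, which averaged 437 CPM there against 864 CPM, the sum was 340 to 361 CPM against 324 to 332 CPM, and CTSS rose to 181 CPM against 98.8 CPM. Azurophil granule genes summed to 2010 to 2020 CPM in knockdown MOLM13 against 3880 to 4010 CPM, with 6 of 7 lower, 1 higher and a median log2 change of -2.03. In OCIAML5 they summed to 12.6 to 14.5 CPM against 20.8 to 21.8 CPM, with 3 lower, 1 higher and a median of -1.90. Mitochondrial genes held 12.4% and 12.4% of counts in knockdown MOLM13 against 9.32% and 9.86%, and 14.3% and 14.3% in knockdown OCIAML5 against 12% and 10.8%. Of 13 listed genes of late neutrophil granules and maturation, LTF, LCN2, MMP8, OLFM4, CRISP3, CEACAM8 and FCGR3B were at 0 in all 6 groups. The list still summed to 252 to 253 CPM in knockdown MOLM13 against 223 CPM, and to 104 to 106 CPM in knockdown OCIAML5 against 100 to 105 CPM. Its 2 tested genes were called in both lines. CXCR2 changed by 1.16 in MOLM13 and 0.88 in OCIAML5, and CSF3R by 0.12 and -0.69. After PU.1 knockdown the changes were -1.39 for CXCR2 and 0.58 for CSF3R. Epithelial genes summed to at most 2.19 CPM, erythroid genes to at most 0.391, megakaryocyte genes to at most 14, B cell genes to at most 4.24 and T and NK cell genes to at most 23.7 CPM. Blast markers summed to 640 to 641 CPM in knockdown MOLM13 against 995 to 1020 CPM, with 2 of 4 tested lower, and to 245 to 249 CPM in knockdown OCIAML5 against 725 to 734 CPM, with 3 of 4 lower. The part of these markers and of the mitochondrial share in the S100 changes was not tested.

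The PU.1 and PSPC1 knockdowns were compared in OCIAML5 by the difference of their effects, each against the controls of its own experiment. It was positive for S100A10 (0.95 ± 0.17, adjusted p = 2.8e-06), S100A6 (0.93 ± 0.21, adjusted p = 0.00027) and S100A11 (0.86 ± 0.11, adjusted p = 7.4e-10), and negative for S100A13 (-1.53 ± 0.36, adjusted p = 0.00036). For S100P the difference was 6.62 ± 1.0, but it passed the filter on low counts only through the PU.1-knockdown libraries, with 322 and 482 reads against 1 to 10 in the other 6 libraries, and it was too sparse for a test of PSPC1 knockdown alone. That difference is given as a value and supports nothing further. S100A11 changed in the same direction in both knockdowns, by 1.28 after PU.1 and 0.44 after PSPC1 knockdown, with the larger change after PU.1 knockdown. S100A4 fell in both, and its difference of -0.18 did not pass the test (adjusted p = 0.19). The differences of S100A8, 1.85, and S100A9, 3.16, did not pass either (adjusted p = 0.15 and 0.052), and the call of S100A9 depended on the setting. Of the 8 members tested 4, S100P included, were called higher and 1 lower, beside 45.6% of all genes, 22.7% higher and 22.9% lower.

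Before any comparison of knockdowns, the lines themselves differed in their S100 genes. In MOLM13 controls over OCIAML5 controls of the same experiment, S100A11 stood at a log2 difference of 1.92 ± 0.072 (128 and 132 CPM against 33 and 35.8 CPM). The differences were 1.65 ± 0.13 for S100A6, 1.56 ± 0.10 for S100A10 and 0.45 ± 0.069 for S100A4. S100A13 was lower in MOLM13, by a log2 difference of -1.21 ± 0.36 (0.913 and 1.02 CPM against 2.17 and 2.28 CPM), and S100A8 gave 2 and 0 reads in MOLM13 against 20 and 15 in OCIAML5. The largest adjusted p among these 6 genes was 0.0025. All 6 were called, 4 higher and 2 lower, and so were 60.7% of all genes tested, 30% higher and 30.7% lower. S100A8, 1 of the 2 called lower, passed the filter on low counts only through the OCIAML5 controls, where it was higher. Its call therefore supports nothing further.

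Group means of the members in the OCIAML5 controls differed between the experiments by at most 1.62-fold, S100A12 aside, which had no reads in either. S100A4 averaged 64 CPM in the controls of the PSPC1 experiment and 49.4 CPM in those of the PU.1 experiment, and S100A8 averaged 1.02 and 0.627 CPM. S100A11 averaged 34.4 and 37.1 CPM and S100A10 18 and 21.4 CPM. The tables were scaled separately, so these levels are set side by side without a test, and experiment and library preparation cannot be told apart.

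The receptors and binding partners of the S100 proteins were followed beside them. Of 22 listed, 19 were tested in the PSPC1 experiment and 18 in the PU.1 experiment. After PSPC1 knockdown 10 rose and 6 fell in MOLM13 and 9 rose and 8 fell in OCIAML5, and after PU.1 knockdown 5 rose and 12 fell. Of all genes tested, 57.2%, 56.1% and 60.5% were called in these comparisons. The partners' median log2 changes were 0.13, 0.11 and -0.30, against 0.006, 0.017 and 0.02 over all genes.

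Among the intracellular partners, MYH9, the non-muscle myosin heavy chain that S100A4 binds, fell in all 3 knockdowns. It stood at 781 and 814 CPM in PSPC1-knockdown MOLM13 against 1570 and 1570 CPM, at 464 and 474 CPM in PSPC1-knockdown OCIAML5 against 1310 and 1260 CPM, and at 676 and 657 CPM in PU.1-knockdown libraries against 1360 and 1350 CPM. The log2 changes were -0.98, -1.45 and -1.02 (largest adjusted p = 2.2e-37). CACYBP, the calcyclin-binding protein, fell in all 3 as well (-1.19, -0.69 and -0.46), including the comparisons in which S100A6 rose. EZR, the ezrin gene, fell by 0.76, 0.99 and 0.18, and PPFIBP1, a liprin that S100A4 binds, rose by 0.93, 1.82 and 1.80 on the log2 scale.

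ANXA1, the annexin partner of S100A11, stood at 383 and 397 CPM after PU.1 knockdown against 31.5 and 35.4 CPM in controls (log2 3.54 ± 0.051, adjusted p = 4.6e-70). After PSPC1 knockdown it rose by 0.89 in MOLM13, where S100A11 fell, and by 1.39 in OCIAML5, where S100A11 rose. ANXA2, the partner of S100A10, rose slightly in MOLM13 (0.13, adjusted p = 0.04), and fell in OCIAML5 after PSPC1 knockdown (-0.32) and PU.1 knockdown (-0.51). AHNAK, a giant scaffold protein bound by the annexin A2 and S100A10 complex, was higher in PSPC1-knockdown MOLM13 (0.39) and lower in PSPC1-knockdown OCIAML5 (-1.90) and after PU.1 knockdown (-0.56). The test of the difference between the lines gave 2.29 ± 0.054 for AHNAK (adjusted p = 4.9e-50).

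**Figure D4:**
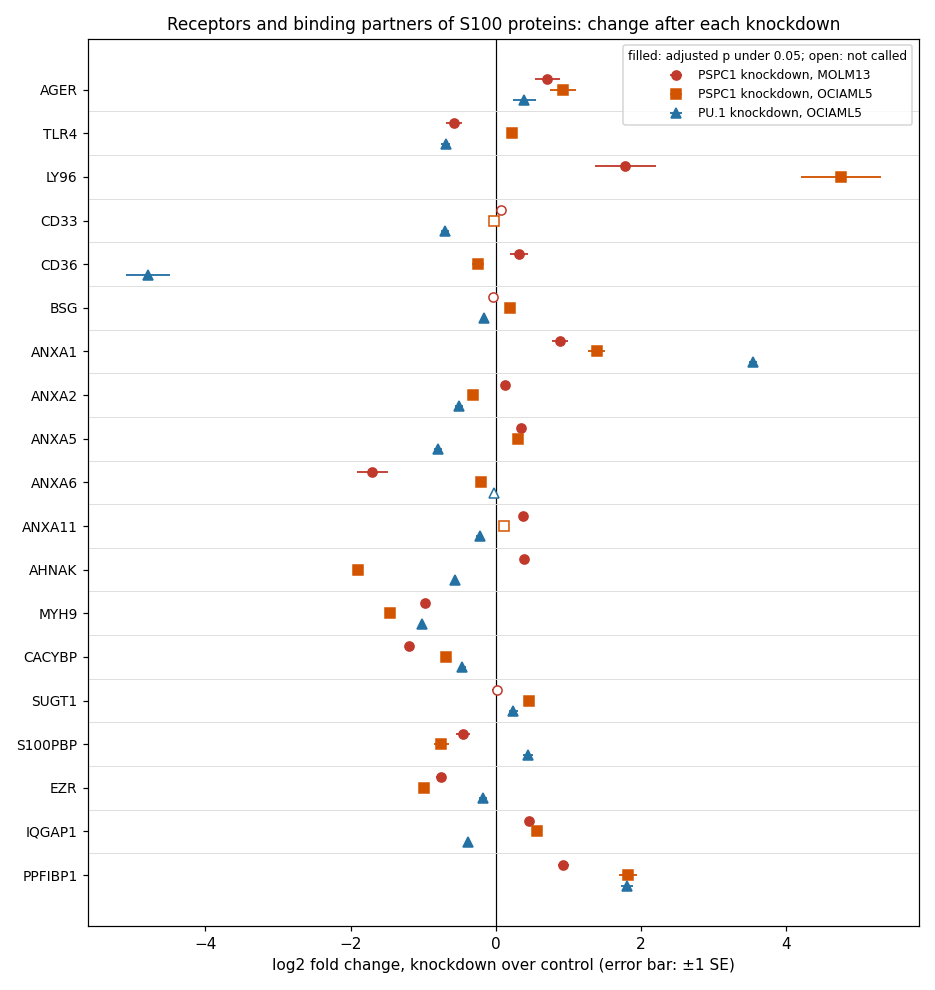
Log2 change (knockdown over control, error bars of 1 SE) of 19 receptors and binding partners of S100 proteins after PSPC1 knockdown in MOLM13 (circles), PSPC1 knockdown in OCIAML5 (squares) and PU.1 knockdown in OCIAML5 (triangles), with filled symbols for an adjusted p under 0.05; LY96 was not tested after PU.1 knockdown. MYH9, CACYBP and EZR lie below 0 and ANXA1, PPFIBP1 and AGER above 0 in all 3, whereas AHNAK, TLR4 and CD36 fall on both sides.

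Among the receptors, AGER was higher in all 3 knockdowns (0.71, 0.93 and 0.39, largest adjusted p = 0.03). TLR4 fell in PSPC1-knockdown MOLM13 (-0.58) and after PU.1 knockdown (-0.69) and rose in PSPC1-knockdown OCIAML5 (0.22). Its co-receptor LY96 stood at 2.57 and 3.52 CPM in PSPC1-knockdown MOLM13 against 0.822 and 0.956 CPM, and at 4.22 and 3.95 CPM in PSPC1-knockdown OCIAML5 against 0.217 and 0.0632 CPM. CD36, a scavenger receptor, stood at 0.218 and 0.279 CPM after PU.1 knockdown against 6.65 and 7.5 CPM (log2 -4.79 ± 0.30, adjusted p = 2.1e-25).

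Of 10 transcription factors known at the calgranulin genes, 5 rose and 3 fell after PU.1 knockdown. SPI1, the target of that knockdown, was 1 of the 3 that fell (log2 -2.2), so its call was set by the design. After PSPC1 knockdown 4 rose and 4 fell in each line. Called genes thus made up 8 of 10 in each comparison, beside 60.5% of all genes after PU.1 knockdown and 57.2% and 56.1% after PSPC1 knockdown in MOLM13 and OCIAML5, and their median log2 changes were 0.17, -0.22 and -0.28. CEBPE, a factor of late granulocyte maturation, stood at 114 and 112 CPM after PU.1 knockdown against 13.3 and 12.9 CPM (log2 3.11 ± 0.069, adjusted p = 3.4e-56), while S100A8 and S100A9 stayed under 1.1 CPM. IRF8, a factor of monocyte development, fell after PU.1 knockdown (-1.20) and in PSPC1-knockdown OCIAML5 (-1.84). In MOLM13, CEBPA fell after PSPC1 knockdown (-0.85), and SPI1 was higher there by 0.44.

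EF-hand proteins outside the S100 family served as a further set, all 24 tested. After PSPC1 knockdown 8 rose and 8 fell in MOLM13 and 8 rose and 10 fell in OCIAML5, and after PU.1 knockdown 8 rose and 12 fell, with medians of 0.05, -0.04 and -0.09. These are 16, 18 and 20 of 24 genes, beside 57.2%, 56.1% and 60.5% of all genes tested, and nothing particular to the set is read from them. LCP1, the actin-bundling plastin of blood cells, rose in all 3 (0.88, 1.03 and 0.40), and CALU, a calcium-binding protein of the secretory pathway, fell in all 3 (-1.65, -1.26 and -1.27).

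Of the 12 other S100 genes, 2 were tested in each experiment. S100Z gave 17 and 32 reads after PU.1 knockdown against 13 and 4 in controls and was called higher (log2 1.59 ± 0.58, adjusted p = 0.015). DESeq2 did not call it (adjusted p = 0.14), nor did the test without the second control (0.87, adjusted p = 0.29) or without the second knockdown library (1.27, adjusted p = 0.23). In PSPC1-knockdown OCIAML5 it gave 15 and 5 reads against none in controls, at least 5.44-fold higher against a floor of 3 counts over the control group. The 95% exact lower limit of that ratio, which also covers the counting error of the knockdown reads, was 4.03. S100B, best known from glia, gave no reads after PU.1 knockdown against 9 and 9 in controls, at least 5.49-fold lower against the same floor over the knockdown group (95% exact lower limit 4.02), and S100A7, S100A7A and S100A7L2 were at 0 in all 6 groups.

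The genes whose levels ran most like a member over the 12 libraries were ranked by Pearson's r of log2(CPM + 1) among 10034 genes that averaged at least 5 CPM in each table, as a description only, since the libraries fall into 6 groups that every gene shares. Among the genes closest to S100P were VAT1 (0.985) and GBP2 (0.956). Closest to S100A11 were ADAMTSL4 (0.983), SKIL (0.982) and NIPAL3 (0.978), and closest to S100A13 were ATG2B (0.981), ADD1 (0.98) and KIF13B (0.98). For S100A4 they were UHRF1BP1, RXFP1 and CSF2RA (0.98 to 0.978), for S100A6 EIF3E, P2RX4 and TATDN1 (0.993 to 0.991), and for S100A10 C6orf120, RNASE2 and SLC25A15 (0.98 to 0.976). S100A8 came closest to ABCA1 (0.971), and S100A9 reached no more than 0.846, with DEDD.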

How the data were processed

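RNA counts were studied for 9 S100 genes in 12 libraries, placed from the labels in 6 groups of 2. The authors deposited raw counts per gene, per the file headers, in 1 table of 8 libraries (PSPC1) and 1 of 4 (PU.1). The submitters' processing notes list, on GRCh38, DESeq2 1.36.0, HTSeq 2.0.2, STAR 2.7.10a and Trim Galore 0.6.7, without saying what each did; per the labels' protocols the libraries came from a stranded mRNA kit. The annotation release is not stated.

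The tests were run with edgeR 4.0.16 under R 4.3.3 (filterByExpr, TMM scaling, quasi-likelihood F tests) and Benjamini-Hochberg adjustment over 16457 genes in the PSPC1 table, 16861 in the PU.1 table and 17159 in the 8 OCIAML5 libraries joined. The 8 PSPC1 libraries were fitted together, which left 4 residual degrees of freedom, against 2 for PU.1. These fits had a biological coefficient of variation of 4.7%, 4.1% and 4.5%, and the variance within groups was 2.62 to 5.35 times that of counting. Standard errors were taken from the F statistic and are approximate. Per-kilobase levels used the union of exons in GENCODE 29. The steps were tested on simulated data.

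The tested log2 changes and the counts of calls were also computed with DESeq2 1.42.0, with library size alone or RLE size factors, with no low-count filter or a minimum of 1 CPM in 2 libraries, with a replicate block, at an adjusted p of 0.01, and without each library of the fit in turn. The PSPC1 comparison within a line was also fitted on that line alone, levels were also computed with library size alone, and levels per kilobase with the longest transcript. For S100P in MOLM13 the unfiltered value without each library was added after seeing the data. The members and the gene lists were chosen with earlier results of these data known. The text names all members, the listed genes with the smallest adjusted p, the nearest protein-coding neighbours and up to 3 genes of highest r per member, of which 1 is not reported here; other genes were picked after their values were seen. Plots were drawn in matplotlib 3.10.9 (Python 3.11.15). Isoforms and protein levels were not analysed here.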

Additional observations from a re-analysis of the deposited data

Results flagged for a closer look

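The effect of PSPC1 knockdown on 3 S100 genes differed between MOLM13 and OCIAML5 in a direct test of the difference of effects, MOLM13 minus OCIAML5, on the log2 scale (edgeR's quasi-likelihood test with Benjamini-Hochberg adjustment). For S100A11 the difference was -0.96 (adjusted p = 4.7e-13), with both knockdown libraries below both controls in MOLM13 and above both in OCIAML5. For S100A6 it was 0.72 (adjusted p = 0.00083), with knockdown libraries above the controls in MOLM13 and below them in OCIAML5, where the change itself did not pass the test. For S100A4 it was 0.36 (adjusted p = 0.0029), with knockdown libraries below the controls in both lines. In MOLM13 the S100A4 change itself did not pass the test (log2 -0.12, adjusted p = 0.13). Each of the 3 kept its call when any library was left out, with ranges of -1.06 to -0.87, 0.66 to 0.78 and 0.28 to 0.44. The lines also differed in medium, serum and GM-CSF, which cannot be told apart from the line.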

How the results depend on the processing

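The counts of members called stayed within 1.5 times their value in all 88 alternative settings run. Leaving out each library gave 4 to 6 members called after PSPC1 knockdown in MOLM13, 4 to 5 in OCIAML5, 4 after PU.1 knockdown, 3 for the difference between the lines, 5 to 6 for the difference between the knockdowns and 6 between the control groups. Members not tested in the main fit, such as S100P in the PSPC1 experiment, enter these counts where a setting tested them. They are left out of the tally that follows. With no low-count filter, S100P was called lower after PSPC1 knockdown in MOLM13 (log2 -4.63, adjusted p = 0.0012). Of 571 recomputed log2 changes of members tested in the main fit, 565 kept their side of the threshold. Of the rest, 1 lost its call, 5 gained one and 0 reversed a call. Lost was S100A8 in PSPC1-knockdown OCIAML5 without the second knockdown library. Gained were S100A4 in MOLM13 without the second control, S100A10 after PU.1 knockdown with library size alone, and the difference between the knockdowns for S100A9 with library size alone (3.22, adjusted p = 0.047), without the first PU.1 control (4, adjusted p = 0.038) and without the second PU.1-knockdown library (3.93, adjusted p = 0.018). The cause was not tested. Library size alone moved the PU.1 calls over all genes to 6583 higher and 3995 lower, 62.2% higher, against 4981 and 5216, 48.8% higher.

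Whether the shared replicate numbers pair the samples cannot be settled from groups of 2 libraries. The deviations of same-numbered libraries correlated at 0.026, 0.002 and -0.076 in the 3 knockdown comparisons, so no strong shared shift was seen. With the replicate block no call of a member changed: S100P stood at 5.67 and S100A11 at 1.28 after PU.1 knockdown, and S100A13 at 1.98 and 1.95 after PSPC1 knockdown in MOLM13 and OCIAML5. The block moved the calls over all genes to 9266, 9091 and 9929, against 9408, 9238 and 10197. Of the levels per kilobase, 27 of 54 moved by more than 1 SD when the longest transcript replaced the union of exons. Depth limits S100A8, S100A9, S100A12 and, outside the PU.1 knockdown, S100P, which rest on at most 44 reads per group.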
